A study of Mus musculus with 4 samples.

Results

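Transcripts of 43 genes that copy DNA in S phase were followed in MMTV-Myc cells. These are mouse mammary tumour cells in which a Myc transgene is driven by the mouse mammary tumour virus promoter. The genes were taken by name and cover origin licensing, the replicative helicase, polymerases, the sliding clamp and its loader, nucleotide supply and histone supply. Each of the 43 symbols was found in a row of its own in both deposited tables, among 22440 rows in the mammosphere and bulk table and 11708 rows in the knockdown table. Polyadenylated RNA from 4 cultures was sequenced as single-end reads, with 1 library in each group. Mammosphere cells (day 20, genotype wild type) were grown unattached with EGF, bFGF and a supplement and passaged every few days. Bulk cells (day 0, genotype wild type) were grown with serum and insulin. Cbx8 knockdown cells carried the single hairpin sh68, aimed at Cbx8, which encodes a Polycomb protein that binds methylated histone H3. Control shRNA cells (genotype wild type) carried a hairpin named shLuc in one label and scrambled in another. Cells with hairpins were infected with lentivirus and kept in puromycin, but the labels do not say in which medium or form they grew. All groups carry the Myc transgene. With 1 library per group there is no spread between replicates, so each value below sets 1 library against 1 other, with no test and no p-value computed from it.

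DNA replication begins when the origin recognition complex, Cdc6 and Cdt1 load rings of MCM proteins onto DNA, a step called licensing. In S phase the kinases Cdc7 with Dbf4 and cyclin E with its partner kinase switch the rings on, and Cdc45 and the GINS proteins join them to form the moving helicase. Polymerases then copy each strand behind it, held by the PCNA clamp, while ribonucleotide reductase and thymidylate enzymes supply deoxynucleotides. Many of these genes are transcribed together by E2F factors as cells pass from G1 into S phase, and their transcript levels are widely used as a mark of proliferation. In a bulk RNA sample, fewer cycling cells and less of the transcript per cell cannot be told apart.

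The targeted transcript was lower in the library labelled as its knockdown. Cbx8 was at 1.23 FPKM (fragments scaled by transcript length and library size) with the hairpin, against 4.74 FPKM with the control hairpin, a ratio of 3.84 of control over knockdown. In the authors' deposited table that row had p = 0.0025 and q = 0.385. Myc itself, the driver of these tumours, was at 301 FPKM in the knockdown library and 511 FPKM in the control. In the other pair Myc was at 361 FPKM in mammospheres and 815 FPKM in bulk cells. Median FPKM over the rows compared was 9.61 in mammospheres, 11.7 in bulk cells, 16.5 in the knockdown library and 16.6 in the control. The cells come from a mammary tumour, and their luminal markers were uneven. Of 8, the keratins Krt18, Krt19 and Krt8 were at 58.2, 9.65 and 5.14 FPKM in mammospheres and at 570, 9.08 and 334 FPKM in bulk cells. Epcam, Cdh1, Cldn3, Cldn4 and Cldn7 were between 0.0135 and 0.509 FPKM in mammospheres and between 0.769 and 15.1 FPKM in bulk cells.

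Sequence shared by the genes is shown first, because many of them are E2F targets and the search does not use the expression values. RefSeq promoters (GRCm38.p6), each running from 250 bases before to 50 bases after an annotated start, were held for 35 of the 43 genes, as 40 promoters. The 8 genes with no entry are Mcm4, Gins1, Gins2, Gins4, Rfc2, Prim2, Pole and Ccne2. The E2F words searched were TTTCCCGC, TTTGGCGC, TTTCGCGC and TTTGCCGC, on both strands. At least 1 of these words lay in the promoters of 11 of 35 genes (31.4%), against 2.6% of 27025 genes in the whole promoter table and 4.86% of the 8391 genes that were also at 1 FPKM or above in any of these libraries. The lines below give the whole Mcm6 promoter, which holds 3 matches, and then the stretch around the matches nearest the 5′ end in Mcm3, Mcm5, Mcm7, Cdc6, Cdt1, Gins3 and Rfc3. They were chosen to show the MCM ring, the licensing loaders, the gene with the highest mammosphere change and 1 gene that was lower there. Coordinates are GRCm38.p6, each sequence runs 5′ to 3′ in the direction of its gene, and capitals mark the E2F words.
Mcm6, chr1:128359656-128359955, minus strand: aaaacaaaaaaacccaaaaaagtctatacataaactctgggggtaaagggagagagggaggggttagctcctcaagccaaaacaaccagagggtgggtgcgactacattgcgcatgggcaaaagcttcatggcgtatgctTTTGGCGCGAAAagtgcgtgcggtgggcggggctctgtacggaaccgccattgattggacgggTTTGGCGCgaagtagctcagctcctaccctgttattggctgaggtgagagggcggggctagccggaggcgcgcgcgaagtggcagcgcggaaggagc
Mcm3, chr1:20820263-20820309, minus strand: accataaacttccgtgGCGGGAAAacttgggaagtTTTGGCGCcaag
Mcm5, chr8:75109340-75109383, plus strand: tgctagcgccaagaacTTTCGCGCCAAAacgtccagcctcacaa
Mcm7, chr5:138172025-138172064, minus strand: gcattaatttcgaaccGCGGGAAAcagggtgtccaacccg
Cdc6, chr11:98907997-98908036, plus strand: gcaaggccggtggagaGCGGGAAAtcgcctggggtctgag
Cdt1, chr8:122568031-122568064, plus strand: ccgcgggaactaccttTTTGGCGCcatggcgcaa
Gins3, chr8:95633502-95633541, plus strand: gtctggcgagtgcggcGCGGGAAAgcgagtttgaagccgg
Rfc3, chr5:151651185-151651234, minus strand: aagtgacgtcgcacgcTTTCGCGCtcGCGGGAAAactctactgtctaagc

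In Mcm6 and Mcm5 an E2F word on one strand overlaps a second on the other, which makes a longer run of capitals. The 17 matches in the 11 genes began between positions −165 and 39 relative to the start, with a median of −41. By role, the words lay in 4 of 5 MCM ring genes with a promoter entry, in both licensing loaders, in Gins3 alone of 3 helicase partners, in Pola1 and Pold1 of 4 polymerase and primase genes, in Rfc3 and in Lig1. None of the 5 nucleotide supply genes, 4 S phase kinase and E2F genes, 3 histone and chromatin genes or 2 single-strand binding genes held such a word in the windows searched, nor did Mcm2. An annotated start need not be the main start of a gene, and the E2f1 window may lie inside the gene. The absence of a word therefore holds for these windows only. The CAAT box CCAAT was found in the promoters of 19 of 35 genes (54.3%, against 41.1% of all genes), the GC box GGGCGG in 27 (77.1%, against 38.2%), the Myc-type E-box CACGTG in 7 (20%, against 8.09%), and TTTGAA, the core of an element of late cell cycle genes, in 6 (17.1%, against 20.2%), each on both strands. Of the 17 E2F matches, 4 overlapped another E2F match, 1 overlapped a CAAT box and none overlapped the other motifs. Against the genes at 1 FPKM or above, the shares were 43.2% for the CAAT box, 69.8% for the GC box, 11.9% for the E-box and 14.0% for TTTGAA, so the GC box share lay near theirs. The CACGTG genes were Tyms, Rfc1, Lig1, Rpa1, Chaf1a, Pola2 and Fen1. These are letter matches only and say nothing of a factor's binding.

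**Figure D1:**
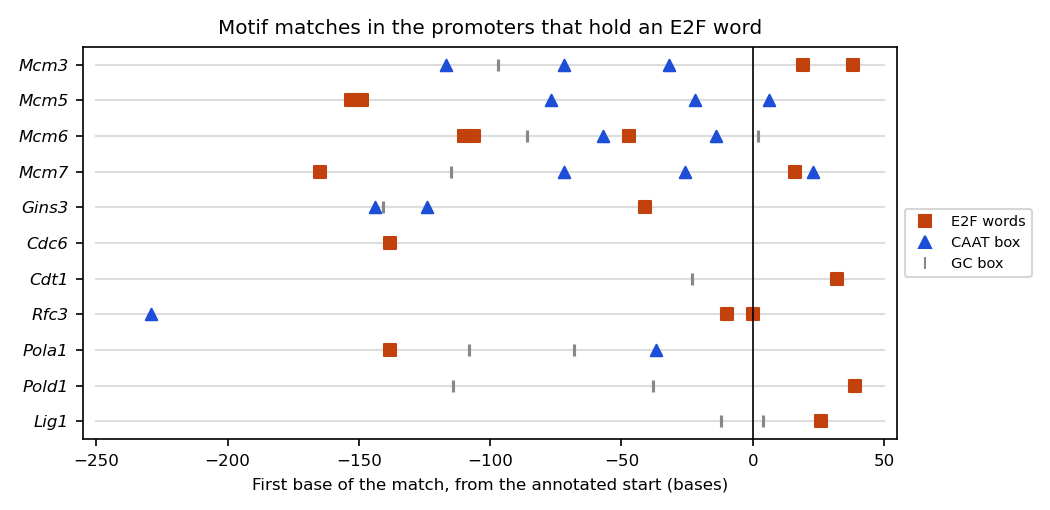
Positions of motif matches in the 11 promoters that hold an E2F word. The x axis gives the first base of each match in bases from the annotated start, squares are E2F words, triangles the CAAT box (CCAAT) and bars the GC box (GGGCGG); E2F words begin between −165 and 39.

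Replication genes were higher in mammospheres than in bulk cells nearly throughout, mostly by less than 2-fold. Of 42 genes with a usable estimate, 39 had a positive log2 fold change, taken as log2 of mammosphere FPKM plus 1 over bulk FPKM plus 1, which shrinks the differences of genes near 1 FPKM. The median was 0.49, with quartiles at 0.27 and 0.74. All 11603 rows that reached 1 FPKM in the table had a median of −0.24, with 34.7% positive, so 40 of the 42 genes lay above the median row. Fold limits here and below are on that scale with 1 FPKM added. Gains of 2-fold or more were seen in 1 gene (Gins3), 2.38% of the 42, beside 3.54% of all rows. As plain ratios of FPKM 3 genes passed 2-fold, Gins3 at 2.7, Cdc7 at 2.23 and Ccne2 at 2.1. The share of all rows was not computed for plain ratios. With 0.1 FPKM added the count was also 3 of 42, beside 5.76% of all rows. At 1.5-fold or more with 1 FPKM added, 16 genes (38.1%) were higher, beside 9.86% of all rows. None was lower by 2-fold, beside 17.3% of all rows, and 1 was lower by 1.5-fold, beside 30.7%. No gene of the set reached q under 0.05 in the authors' deposited table, where 24 of the 42 were tested and the lowest q was 0.353. Of all 4045 rows tested there, 481 (11.9%) did.

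**Figure D2:**
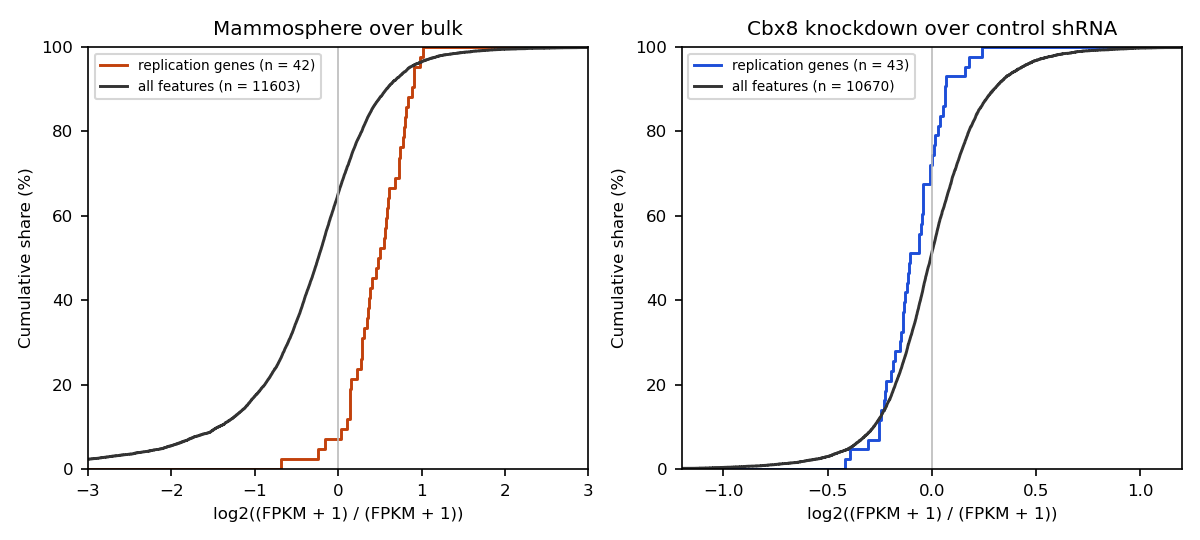
Cumulative share of genes (y axis, percent) at or below each log2 fold change (x axis) for the replication genes and for all features compared, mammosphere over bulk at left and Cbx8 knockdown over control shRNA at right; a few features lie beyond the x limits. At left the replication genes lie right of all features over most of their range, with medians of 0.49 and −0.24, and at right slightly to the left, with medians of −0.11 and −0.01.

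The size of that difference depended on how the libraries were scaled. With fold changes set relative to the median row, a shift of 0.24, the median of the 42 genes was 0.73, with 40 positive and 10 at 2-fold or more. With upper quartiles set equal it was 0.80, with 41 positive and 13 at 2-fold or more. All rows split into 411 higher and 2002 lower as deposited, 756 and 1451 after centring, and 826 and 1561 with equal upper quartiles.

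Markers of other cells differed between the same libraries. The summed level of 12 fibroblast markers was 1.12 FPKM in mammospheres and 418 in bulk cells, with Lum, Thy1 and Postn at 0 in mammospheres. Leukocyte markers (15 genes) summed to 103 FPKM in mammospheres, of which Cd68 gave 101, and to 437 in bulk cells, of which Cd68 gave 35.5. Cd68 was thus higher in mammospheres (log2 1.49), unlike the other leukocyte markers. Tyrobp, Cd3e, Cd3g and Fcer1g were among those at 0 in mammospheres. At least 2-fold lower were 10 of 11 fibroblast and 13 of 14 leukocyte markers that reached 1 FPKM. The 4 endothelial markers summed to 0.24 and 5.63 FPKM in mammospheres and bulk cells, with Tek at 0 in mammospheres, and the 4 erythroid markers to 0 and 3.14 FPKM. Luminal markers (8 genes) summed to 74.1 FPKM in mammospheres and 934 in bulk cells, and 5 basal markers to 6.42 and 50.4, with Trp63 at 0 in mammospheres. The part of these markers in the higher replication transcripts was not tested.

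**Figure D3:**
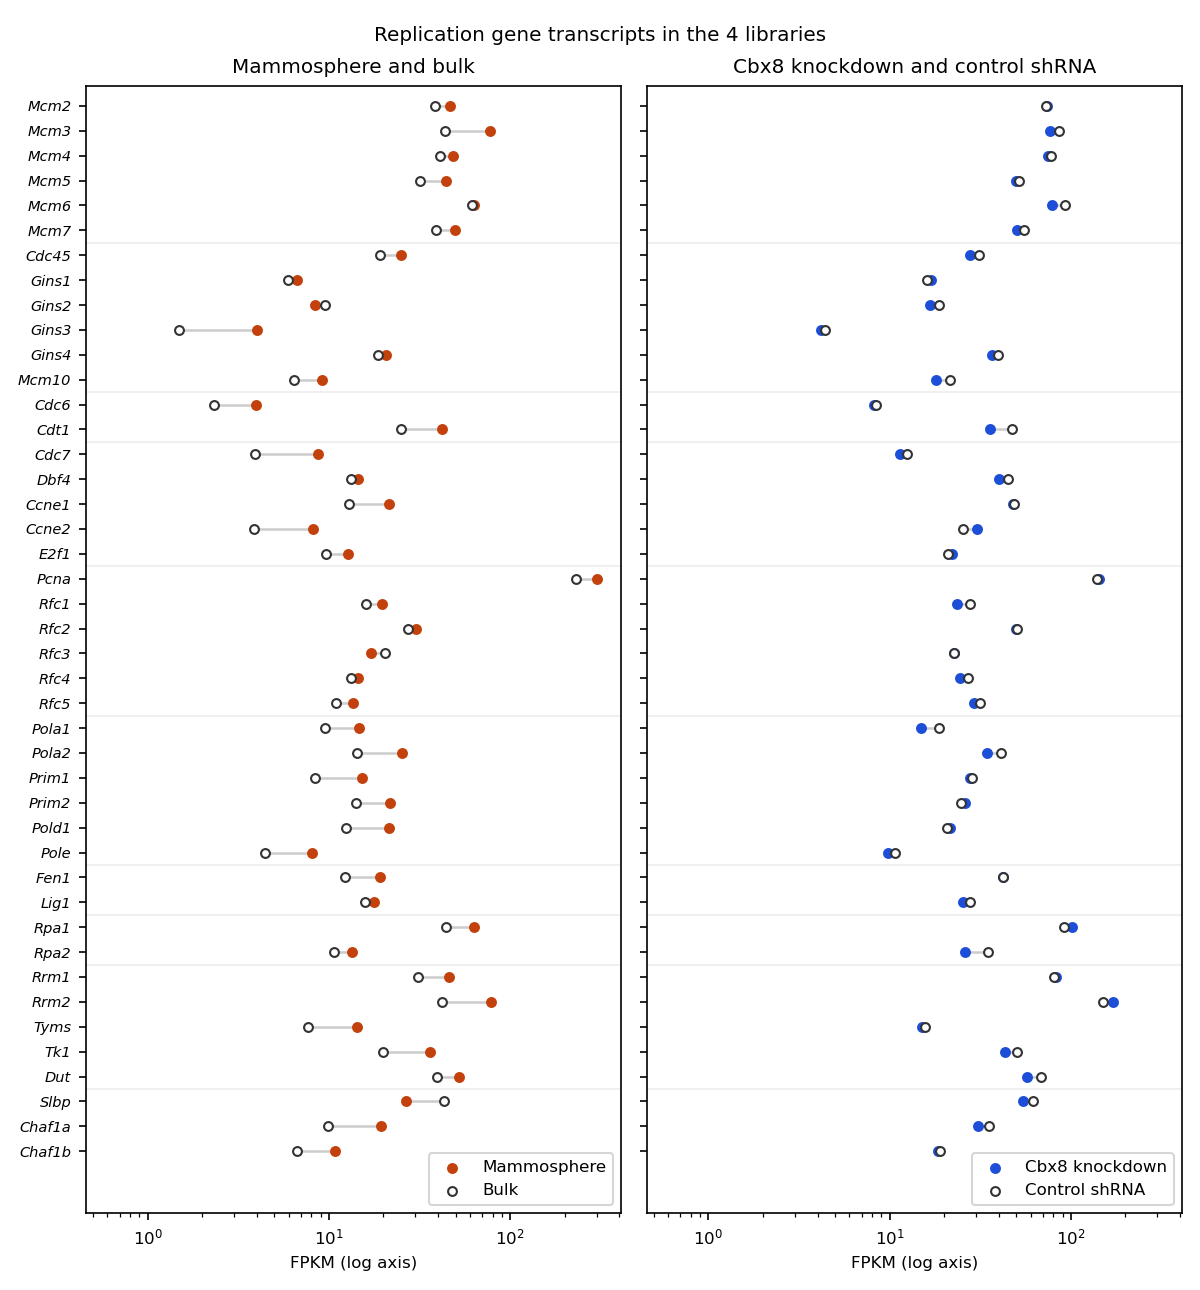
FPKM of the 43 genes on a log x axis, mammosphere (filled) and bulk (open) at left and Cbx8 knockdown (filled) and control shRNA (open) at right, with genes grouped by role. Filled points lie right of open ones for most genes at left and nearly on them at right; the tables were normalised separately, and Dbf4 at left is a failed estimate.

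Licensing loaders were higher in mammospheres. Cdt1, which brings MCM rings to origins, was at 42.2 FPKM in mammospheres and 25.1 in bulk cells. Cdc6, the ATPase that works with it, was at 3.94 FPKM in mammospheres and 2.32 in bulk cells, among the lowest levels of the set. As plain ratios, mammospheres over bulk, Cdt1 was at 1.68 and Cdc6 at 1.70. Cdt1 relative to Gmnn, the geminin transcript whose protein holds Cdt1 in check, was at 2.41 in mammospheres and 2.39 in bulk cells, a ratio that does not depend on how libraries are scaled. In the other table Cdt1 was at 35.7 FPKM in the knockdown library and 47.1 in the control, the largest difference there but for Rpa2. Cdc6 was at 8.16 and 8.43 FPKM in the knockdown and control libraries. Cdt1 over Gmnn was 0.607 in the knockdown library and 0.796 in the control.

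The 6 MCM ring genes encode the subunits of 1 hexamer, present in equal number in the ring, and their transcripts lay close together. They ranged from 44.5 to 77.1 FPKM in mammospheres and from 31.7 to 61.8 FPKM in bulk cells, a spread of 1.73 and 1.95 times between the highest and lowest subunit. Mcm3 was at 77.1 FPKM in mammospheres and 43.9 in bulk cells, the largest gain of the ring (log2 0.80). Mcm5 was at 44.5 and 31.7 FPKM in mammospheres and bulk cells, and Mcm7 at 49.3 and 38.8. The remaining subunits differed less. Mcm2 was at 46.6 FPKM in mammospheres and 38.5 in bulk cells, and Mcm4 at 48.2 and 41.2. Mcm6 was nearly level, at 63.3 FPKM in mammospheres and 61.8 in bulk cells (log2 0.03). Mcm6 was therefore the most abundant subunit in bulk cells and Mcm3 in mammospheres, and Mcm3 over Mcm6 was 1.22 in mammospheres and 0.709 in bulk cells. Both promoters carry E2F words, as printed above, and that of Mcm2 holds none. In the knockdown and control libraries the ring ran from 49.8 to 78.9 FPKM and from 51.7 to 92.6 FPKM. Mcm6 was at 78.9 FPKM in the knockdown library and 92.6 in the control (log2 −0.23), and Mcm2 at 73.9 and 73.2. Reads of the Mcm7 row share their locus with Mir106b, Mir25 and Mir93.

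Helicase partners varied more among themselves in log2 change, with 2 uncertain rows, Gins3 and Gins2, at the ends. Gins3, a GINS subunit, was at 4.00 FPKM in mammospheres and 1.48 in bulk cells (log2 1.01), the only gene of the set past 2-fold with 1 FPKM added. That change lay above 96.6% of all rows, but the authors did not test the row, and its level is near the 1 FPKM added. Its mm9 locus is chr8:98157458-98168959. The other GINS subunits differed less: Gins1 was at 6.67 FPKM in mammospheres and 5.94 in bulk cells, and Gins4 at 20.6 and 18.6. Gins2 was at 8.36 FPKM in mammospheres and 9.48 in bulk cells (log2 −0.16), a direction that turned positive after centring and with equal upper quartiles. Gins3 over Gins2 was 0.479 in mammospheres and 0.156 in bulk cells. Cdc45, which joins GINS and the ring, was at 25.1 FPKM in mammospheres and 19.1 in bulk cells. Mcm10, an initiation factor outside the ring, was at 9.16 and 6.44 FPKM in mammospheres and bulk cells. In the knockdown library Gins3 was at 4.18 FPKM, against 4.41 in the control. Mcm10 was at 18 FPKM in the knockdown library and 21.5 in the control (log2 −0.24), and Cdc45 at 27.6 and 31.3. Gins1, Gins2 and Gins4 were at 16.9, 16.8 and 36.6 FPKM in the knockdown library and at 16.1, 18.6 and 39.6 FPKM in the control. The Gins2 row spans a locus of 100211 bases in mm9 that also holds Gse1, so its level is uncertain.

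Among regulators of S phase entry, Cdc7, the kinase that activates loaded rings, was at 8.72 FPKM in mammospheres and 3.90 in bulk cells (log2 0.99). Its activating subunit Dbf4 was at 14.5 and 13.3 FPKM in mammospheres and bulk cells in a row whose estimate the authors' table marks as failed, so it was left out of every count there. Cyclin E drives entry into S phase through its partner kinase. Ccne2 was at 8.16 FPKM in mammospheres and 3.88 in bulk cells (log2 0.91), in a locus shared with Ints8, and Ccne1 at 21.4 and 12.9 (log2 0.68). E2f1, the transcription factor upstream of many of these genes, was at 12.7 FPKM in mammospheres and 9.67 in bulk cells (log2 0.36). The 4 usable genes of this role had a median of 0.80. With the hairpin, Ccne2 had the most positive change of the set, at 30.2 FPKM in the knockdown library and 25.4 in the control (log2 0.24). E2f1 was at 22.0 and 21.0 FPKM, Ccne1 at 48.0 and 48.3, Cdc7 at 11.4 and 12.5, and Dbf4 at 40.2 and 44.7, knockdown and control in that order. Those 4 lay within 0.15 of 0 on the log2 scale.

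Polymerase and primase genes were all higher in mammospheres by nearly the same amount, with log2 changes between 0.56 and 0.79 in all 6. Pola2, the regulatory subunit of polymerase alpha, was at 25.2 FPKM in mammospheres and 14.2 in bulk cells. The catalytic subunit Pola1 was at 14.6 and 9.57 FPKM in mammospheres and bulk cells. Prim1 and Prim2 form the primase that starts each fragment, and were at 15.2 and 21.7 FPKM in mammospheres and at 8.40 and 14.1 FPKM in bulk cells. Pold1, the catalytic subunit of polymerase delta, which copies the lagging strand, was at 21.5 FPKM in mammospheres and 12.5 in bulk cells. Pole, that of polymerase epsilon on the leading strand, was at 8.03 and 4.43 FPKM in mammospheres and bulk cells. The span of 0.22 over these 6 genes compares with 0.77 over the 6 MCM ring genes and 1.17 over the 6 helicase partners. The last span rests on Gins3 and Gins2, both rows of uncertain level. The partners Mcm10, Cdc45, Gins1 and Gins4 lay between 0.14 and 0.45. With the hairpin the polymerase alpha genes stood lower than the rest. Pola1 was at 14.8 FPKM in the knockdown library and 18.6 in the control (log2 −0.31), and Pola2 at 34.3 and 41.1 (log2 −0.26). Prim1, Prim2, Pold1 and Pole lay between −0.11 and 0.06.

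The clamp and its loader had the lowest median of the roles in mammospheres, 0.21. Pcna, the sliding clamp, was the most abundant transcript of the set in both libraries, at 301 FPKM in mammospheres and 230 in bulk cells (log2 0.39). The annotation lists the processed pseudogenes Pcna-ps1 and Pcna-ps2, and Tyms-ps for Tyms, so reads of these genes may be split. The loader opens the clamp and sets it on DNA. Its large subunit Rfc1 was at 19.6 FPKM in mammospheres and 16 in bulk cells, Rfc2 at 30.1 and 27.2, and Rfc5 at 13.5 and 10.9. Rfc4, in a locus shared with Eif4a2, was at 14.4 FPKM in mammospheres and 13.3 in bulk cells. Rfc3 was at 17.1 FPKM in mammospheres and 20.3 in bulk cells (log2 −0.24), a value equal to the median of all rows, and turned positive with equal upper quartiles.  In the knockdown library Rfc1 was at 23.6 FPKM, against 27.8 in the control (log2 −0.22), while Rfc2, Rfc3, Rfc4 and Rfc5 lay between −0.14 and 0 and Pcna was at 142 and 139 FPKM.

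Enzymes that finish lagging strand fragments and the protein that coats single strands were also higher in mammospheres. Fen1, the flap endonuclease, was at 19.2 FPKM in mammospheres and 12.3 in bulk cells (log2 0.60). Lig1, the ligase that seals fragments, was at 17.8 and 15.8 FPKM in mammospheres and bulk cells (log2 0.16). The Lig1 row lies in a locus shared with 6330408A02Rik. Rpa1, the large subunit of the single-strand binding protein, was at 62.9 FPKM in mammospheres and 44.1 in bulk cells. Its partner Rpa2 was at 13.4 and 10.6 FPKM. Rpa2 had the most negative change of the set with the hairpin, at 26.0 FPKM in the knockdown library and 35.1 in the control (log2 −0.42), with 4.45% of rows further down. Its mm9 locus is chr4:132324274-132334661. Rpa1 was higher there, at 102 FPKM in the knockdown library and 91.4 in the control (log2 0.16). Rpa2 over Rpa1 was 0.255 in the knockdown library and 0.384 in the control. Fen1 was at 42.2 and 42.0 FPKM and Lig1 at 25.3 and 27.6 in the same order.

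Nucleotide supply genes had the highest median of the roles in mammospheres, 0.81 over 5 genes. The S phase kinase and E2F genes were nearly level with them, at 0.80 over 4 usable genes. Rrm2, the subunit of ribonucleotide reductase whose level follows S phase, was at 78.4 FPKM in mammospheres and 42.0 in bulk cells (log2 0.89). Its partner Rrm1, with the catalytic site, was at 46.1 and 31.1 FPKM in mammospheres and bulk cells (log2 0.55). Rrm2 over Rrm1 was 1.70 in mammospheres and 1.35 in bulk cells. Tk1, the thymidine salvage kinase, was at 36.1 FPKM in mammospheres and 19.8 in bulk cells, and Tyms, thymidylate synthase, at 14.2 and 7.66. Dut, which removes dUTP, was at 52.4 FPKM in mammospheres and 39.3 in bulk cells. With the hairpin this role split. Rrm2 was at 171 FPKM in the knockdown library and 151 in the control (log2 0.18), and Rrm1 at 83.2 and 81.0. Dut was at 57.3 FPKM in the knockdown library and 68.6 in the control (log2 −0.26), Tk1 at 43.3 and 50.6 (log2 −0.22), and Tyms at 15.0 and 15.7. The Tk1 row lies in a locus shared with Afmid.

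Histone supply held the largest exception. Slbp, the protein that binds the stem-loop of replication histone messages, was at 26.5 FPKM in mammospheres and 43.1 in bulk cells (log2 −0.68), the only gene of the set at least 1.5-fold lower. It was still lower after centring, by a log2 of −0.45, though 26.4% of all rows lay further down. Its mm9 locus is chr5:33982710-33994955. The chromatin assembly factor, which places new histones behind the fork, was higher instead: Chaf1a was at 19.5 FPKM in mammospheres and 9.91 in bulk cells (log2 0.91), and Chaf1b at 10.8 and 6.68. Slbp over Chaf1a was 1.35 in mammospheres and 4.35 in bulk cells. In the other pair that ratio was 1.76 in the knockdown library and 1.75 in the control. There Slbp was at 54.1 FPKM in the knockdown library and 61.6 in the control, Chaf1a at 30.7 and 35.3, and Chaf1b at 18.4 and 19.

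**Figure D4:**
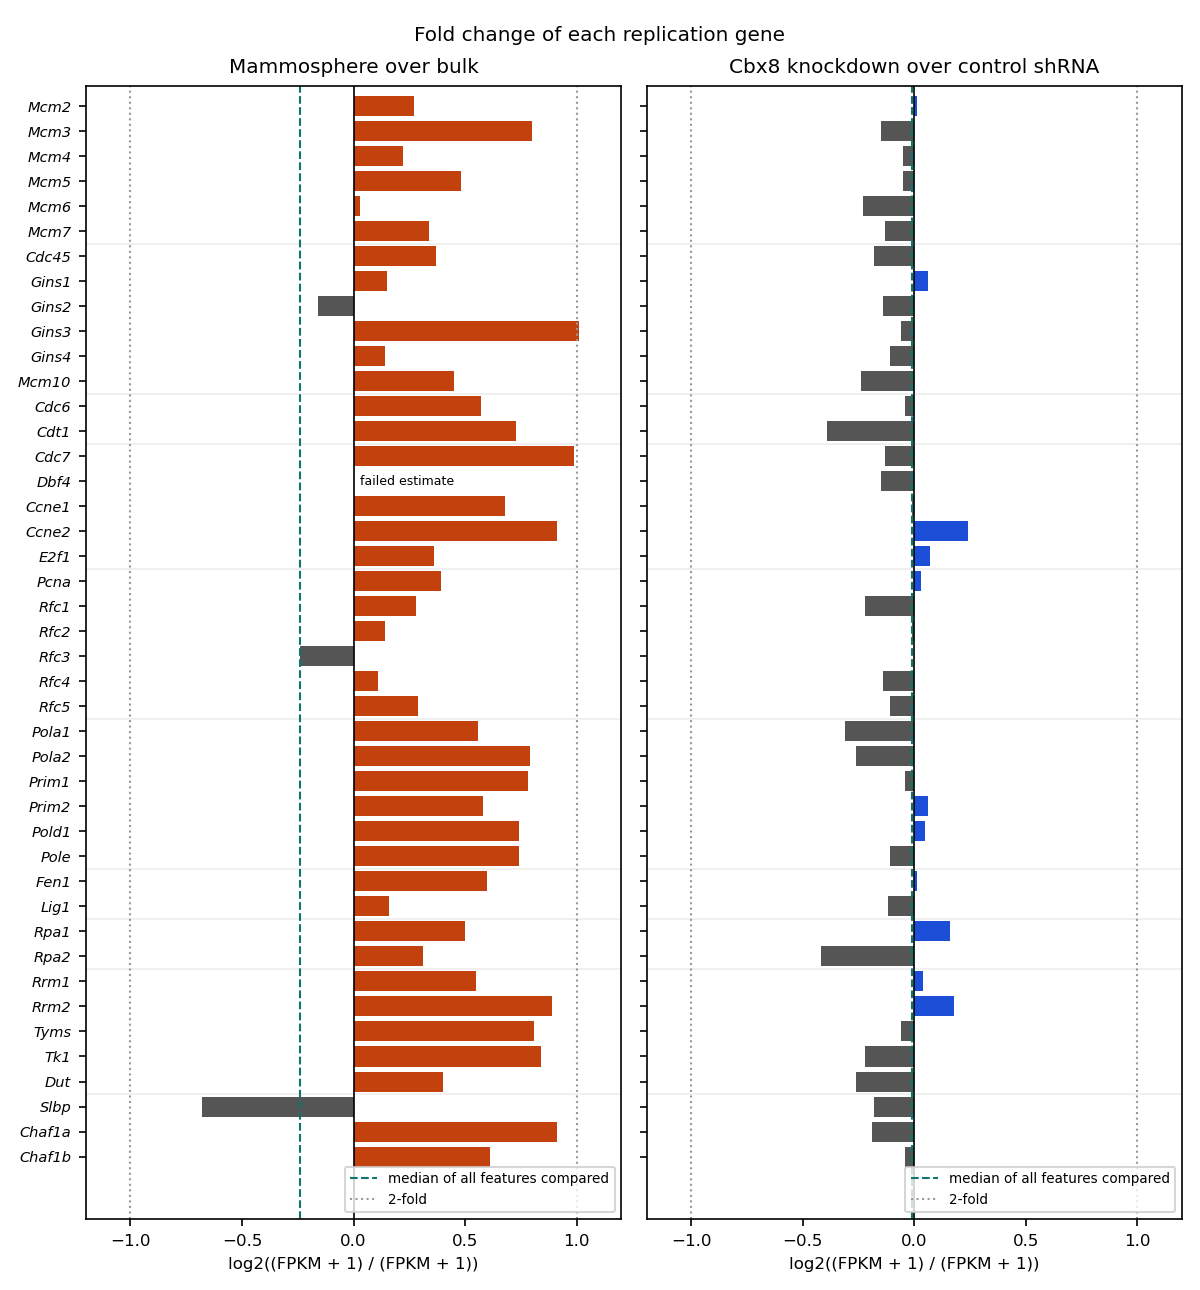
log2 fold change of each gene with 1 FPKM added to each value, mammosphere over bulk at left and Cbx8 knockdown over control shRNA at right; the dashed line is the median of all features (−0.24 and −0.01) dotted lines mark 2-fold, coloured bars are positive and grey bars negative. Gins3 at 1.01 and Slbp at −0.68 are the ends of the left panel, Ccne2 at 0.24 and Rpa2 at −0.42 those of the right.

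Between the knockdown and control libraries these transcripts differed little. Over the 43 genes the median log2 change, knockdown over control, was −0.11 with quartiles at −0.18 and 0.00, and 32 were negative. Over all 10670 rows the median was −0.01 with 51.2% negative, and the middle 50% of rows spanned 0.28, against 0.18 for the 43 genes. None was 2-fold higher (beside 0.262% of all rows) or lower (beside 0.394%), and none reached 1.5-fold higher (beside 2.06%) or lower (beside 2.12%). With shares as low as these in all rows, a count of 0 in 43 genes is near the background. After centring on the median row 31 were negative. With equal upper quartiles 35 were negative, since Mcm2, Pcna and Fen1 changed sign. In the authors' deposited table no gene of the set passed q under 0.05, and the lowest q was 0.999. Only 24 of all 10670 rows (0.225%) did, so a count of 0 is near the background. Marker genes listed there were few. Leukocyte markers (3 of 15 listed) summed to 24.5 FPKM in the knockdown library and 38.4 in the control, of which Cd68 gave 23.9 and 37.6. Fibroblast markers (4 of 12) summed to 3.03 and 6.57 FPKM, and no endothelial or erythroid marker was listed. Luminal markers (7 of 8) summed to 433 and 439 FPKM, and the basal list held Krt14 alone, at 10.5 FPKM in the knockdown library and 1.09 in the control. The part of these markers in the replication values was not tested.

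Set side by side, 28 of the 42 genes usable in both tables were higher in mammospheres than in bulk cells and lower in the knockdown than in the control, 11 were higher in both comparisons and 3 were lower in both. Over 10375 rows in both tables, 23.2% had the first pattern, 36.7% were higher in mammospheres and 51.4% were lower in the knockdown. Singly, 39 of the 42 genes were higher in mammospheres and 31 were lower in the knockdown, and 28 is the fewest that these counts allow, so the joint count adds nothing to them. The tables share no library. Across the 42 genes, which are not independent of each other, the size of the 2 changes was barely related (Pearson r = 0.13, Spearman rho = 0.09). Genes with E2F words had a median of 0.56 in mammospheres over bulk (11 genes) and those with a promoter entry but no word 0.50 (23 genes). With the hairpin the medians were −0.12 and −0.12 (11 and 24 genes).

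Levels differed more between the tables than within them, although the tables were normalised separately and their levels are only set side by side. The median of the 43 genes was 19.6 FPKM in mammospheres, 14.1 in bulk cells, 30.2 in the knockdown library and 35.1 in the control. The mammosphere and bulk medians include the failed Dbf4 estimate. The control shRNA value exceeded the bulk value in 41 of 42 genes, with a median ratio of 2.06, beside 71.0% of 10375 rows and a median ratio of 1.35. Pcna was the exception, at 139 FPKM with the control hairpin and 230 in bulk cells. Rrm2 was the most abundant gene of the set in both hairpin libraries, whereas Pcna was in the other pair.

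The genes are not spread evenly over the genome. Chromosome 5 held 10 of the 43 (23.3%) in the mm9 coordinates of the tables, beside 6.33% of rows compared in the mammosphere table. They are Mcm7, Tyms, Cdc7, Dbf4, Rfc1, Rfc2, Rfc3, Rfc5, Pole and Slbp. The 9 with a usable estimate had a median of 0.29 in mammospheres over bulk, and all rows of the chromosome −0.21, close to the −0.24 of all rows.

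Other genes of the replication pathway were taken from 7 lists. In mammospheres over bulk, 14 of 15 origin recognition and licensing genes were positive, with a median of 0.43 and none at 2-fold. Mtbp, a partner in firing origins, was at 12.9 FPKM in mammospheres and 6.55 in bulk cells, and Gmnn at 17.5 and 10.5. Of 22 further fork genes, 16 were positive (median 0.43), 3 were 2-fold higher and 1 was 2-fold lower. Wdhd1, which ties polymerase alpha to the helicase, was at 12.8 FPKM in mammospheres and 4.00 in bulk cells, and Top2a, the decatenating topoisomerase, at 103 and 44.9. Pole4, a small polymerase epsilon subunit, was the gene 2-fold lower, at 14.1 and 31.0 FPKM. Of 15 checkpoint and fork repair genes, 10 were positive (median 0.35). Exo1, an exonuclease of repair, was at 5.57 FPKM in mammospheres and 1.47 in bulk cells, and the row of Atrip, shared with Trex1, at 16.2 and 43. Blm, a helicase of repair, was at 6.46 and 2.85 FPKM.

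The remaining lists, apart from mitosis, were mixed in direction. Their medians still lay above the −0.24 of all rows, of which 34.7% were positive. Of 10 genes of chromatin assembly at the fork, 6 were positive (median 0.07) and 3 were 2-fold higher. Those were Uhrf1 (55.3 FPKM in mammospheres and 19.2 in bulk cells) and Dnmt1 (51.2 and 23.8), which copy DNA methylation, and the histone chaperone Asf1b (19.7 and 7.27). Of 22 E2F, RB and S phase entry genes, 15 were positive (median 0.23). Skp2, the ubiquitin ligase subunit that clears p27, was at 8.35 FPKM in mammospheres and 2.34 in bulk cells, Mybl2, a transcription factor of late cell cycle genes, at 15.5 and 6.91, and the repressor E2f8 at 8.77 and 4.68. The wider nucleotide synthesis list was near 0 as deposited, with 12 of 22 positive (median 0.03), lower than the 5 deoxynucleotide enzymes above. That list had a median of 0.26 after centring on the median row. Its ends were Pfas of purine synthesis, at 18.5 FPKM in mammospheres and 6.5 in bulk cells in a row shared with Mir3062, and Samhd1, a phosphatase that breaks down deoxynucleotides, at 16.4 and 40.0. Cad, which starts pyrimidine synthesis, was at 49.7 FPKM in mammospheres and 27.3 in bulk cells. In the authors' deposited table, q was 0.0252 for Samhd1, 0.00953 for Atrip, 4.96e-06 for Uhrf1 and 3.41e-11 for Dnmt1. Mitosis genes were positive in 17 of 18, with a median of 0.80 and 3 at 2-fold or more, against 0.49 in the replication set. Ccnb1, cyclin B1, was at 83.0 FPKM in mammospheres and 32.6 in bulk cells, and the mitotic kinase Plk1 at 42.1 and 17.2.

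With the Cbx8 hairpin the 7 list medians lay between −0.13 and −0.07, and no gene of these lists was 2-fold higher or lower. Skp2 was at 18 FPKM in the knockdown library and 30.9 in the control (log2 −0.74), the largest difference in the lists. Mki67, the proliferation antigen, was at 13.2 and 21.3 FPKM, and Pfas at 16.3 and 25.8, knockdown and control in that order. Pold4, a small subunit of polymerase delta, was higher, at 101 FPKM in the knockdown library and 70.7 in the control (log2 0.51). Hus1 and Rad17, which work in clamp-based checkpoint signalling, were at 6.01 and 10.7 FPKM in the knockdown library and at 9.12 and 15.0 FPKM in the control. Rrm2b, a ribonucleotide reductase subunit used outside S phase, was at 7.77 FPKM in the knockdown library and 5.14 in the control (log2 0.51). With 1 FPKM added, Skp2, Mki67 and Pfas were the 3 list genes at least 1.5-fold lower there, and none was 1.5-fold higher, though Hus1 and Rrm2b lay just past that limit as plain ratios.

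**Figure D5:**
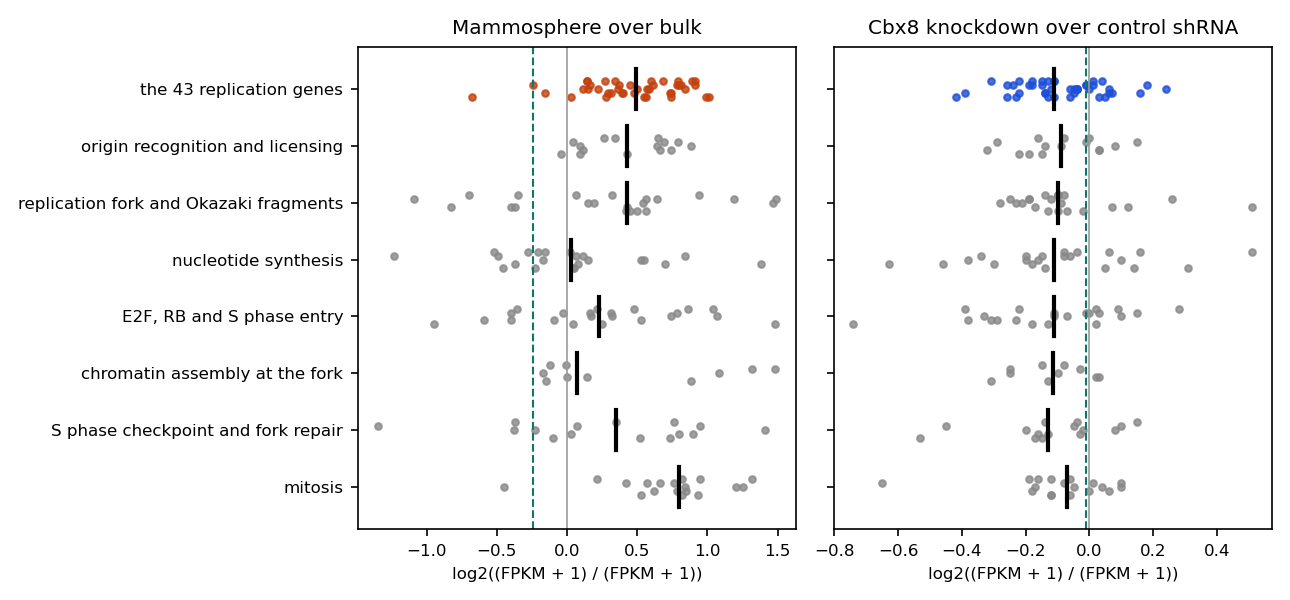
log2 fold change of single genes (points) with the list median (black bar), mammosphere over bulk at left and Cbx8 knockdown over control shRNA at right, for the 43 replication genes (Dbf4 left out at left) and 7 lists of related genes at 1 FPKM or above. The dashed line is the median of all features. At left the replication set (0.49) and every list median lie right of it, from nucleotide synthesis (0.03) to mitosis (0.80). At right every list median lies between −0.13 and −0.07.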

How the data were processed

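The authors deposited 2 Cuffdiff tables of FPKM per gene, 1 for each pair of libraries. Build mm9, TopHat (1.4.0), Cufflinks (1.3.0), Cuffdiff (0.0.7) and FastQC (0.10.0) are named in the submitters' processing notes, without settings or read strand. The p-value and q-value of each row are the authors' own, from 1 library against 1. The authors' deposited log2 ratio, treated as a score since it holds a placeholder where a library is at 0, matched the FPKM within 0.01 in all 14808 and 11693 usable rows above 0 in both libraries.

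No counts are held. Ratios of low FPKM (below 0.2 in both libraries) showed no whole-read steps in mammospheres over bulk cells. The knockdown and control pair had no such rows to check. Depth is therefore unknown and no interval or floor was computed. Rows with a failed (29) or too deep (3) estimate, and 15 knockdown rows with a filled-in value of 1, were left out. Rows at 1 FPKM or above in either library were compared whatever the authors' test status, as log2 of FPKM plus 1, at limits of 2-fold and 1.5-fold. Of the 43 genes only Dbf4, failed in 1 table, was lost from the fold changes, though its FPKM stayed in the median levels. The highest row of a symbol was used. The knockdown table lists no row at 0, so silent genes may be missing from it.

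All 43 genes are named; list genes come from the up to 3 with the largest absolute change per list at 5 FPKM or more, and a few other genes (luminal markers, Cd68, Krt14) were picked after their values were seen. The genes and lists were chosen with earlier results of these data known. Motif searches were exact letter matches. The counting step was run on simulated data with planted changes well past the 2-fold limit, in rows well above 1 FPKM. That check does not cover genes near the limit or near 1 FPKM. Alternatives were pseudocounts of 0.1 and 5, other minimums, centring, equal upper quartiles, summed rows, tested rows only, the 1.5-fold limit, the authors' calls and a shorter motif. Computation used Python 3.11.15, pandas 2.3.3 and matplotlib 3.10.9.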

Additional observations from a re-analysis of the deposited data

How the results depend on the processing

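The mammosphere median of the 42 genes, 0.49, was 0.51 with a pseudocount of 0.1 FPKM, 0.40 with 5 FPKM, 0.46 at a minimum of 5 FPKM, 0.73 after centring and 0.80 with equal upper quartiles. The count at 2-fold or more, 1, was 3 with a pseudocount of 0.1 FPKM (beside 5.76% of all rows), 10 after centring (6.52%), 13 with equal upper quartiles (7.07%) and 16 at a 1.5-fold limit (9.86%). It was 0 with a pseudocount of 5 FPKM (beside 1.23% of all rows), at a minimum of 5 FPKM (3.44%) and among rows the authors tested (3.73%). The first 2 are because Gins3 is a low gene and the third because its row was not tested. By the authors' call at q under 0.05 the count was also 0, beside 11.9% of the rows they tested, higher or lower. The count lower was 1 at a 1.5-fold limit. The knockdown median, −0.11, was −0.08 with a pseudocount of 5 FPKM, −0.10 after centring and −0.14 with equal upper quartiles. No single gene past 2-fold changed sign under these settings, and the medians of both comparisons kept their sign under all 8. The checkpoint list median, 0.35 in mammospheres over bulk, was −1.35 among rows the authors tested, where Atrip alone is left. The E2F match count was 21 of 35 genes with a word 1 letter shorter, which 10.9% of all genes and 20.0% of genes at 1 FPKM or above hold. No paired analysis was possible because each group has 1 library. For the same reason no library could be left out, and without counts the error of low genes such as Gins3 and Cdc6 is unknown.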
